A study of Mus musculus with 8 samples.

Results

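The 3 Mdr genes of the mouse, Abcb1a, Abcb1b and Abcb4, were followed in the livers of 2-day-old mice without Mfp2. Their members are all probe sets that the array annotation pairs with exactly one of these genes. There are 5 of them among 45037 probe sets: 2 for Abcb1a (1419759_at and 1419758_at), 2 for Abcb1b (1418872_at and 1446701_at) and 1 for Abcb4 (1449818_at). The study measured total liver RNA of 4 mice labelled Mfp2 -/- and 4 labelled WT, all aged 2 days, on 1 Affymetrix expression array per mouse. Mfp2, encoded by Hsd17b4, is an enzyme of peroxisomes needed to shorten long and branched fatty acids and the precursors of bile acids. Strain, sex and the design of the allele are not given in the labels, and no other allele or treatment is named for either group. The genes were chosen by the rise of Abcb1a in this same comparison of knockout and wild type livers, with Abcb1b and Abcb4 as its nearest relatives. Their differences are therefore described and not tested.

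Abcb1a and Abcb1b encode P-glycoproteins, pumps of the cell membrane that use ATP to push drugs, toxins and other hydrophobic molecules out of the cell. Between them they do in mice what the MDR1 pump does in humans. Abcb4, also called Mdr2, encodes a related protein of the bile canaliculus that moves phosphatidylcholine into bile, where this phospholipid shields the bile ducts from bile acids.

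The 3 genes lie in one block on chromosome 5, in the order Abcb1a, Abcb1b, Abcb4. The gene table has 5 other genes in this block or overlapping it, of which 1, Rundc3b, was measured. The bases just before their annotated starts are shown because neighbouring copies of one gene family can carry different promoters. They are taken from RefSeq (GRCm38.p6), all 3 on the plus strand and read 5′ to 3′, with matches to CCAAT or GGGCGG on either strand in capitals. They cover chr5:8566841-8567090 for Abcb1a, chr5:8797897-8798146 for Abcb1b and chr5:8893471-8893613 for Abcb4.
Abcb1a: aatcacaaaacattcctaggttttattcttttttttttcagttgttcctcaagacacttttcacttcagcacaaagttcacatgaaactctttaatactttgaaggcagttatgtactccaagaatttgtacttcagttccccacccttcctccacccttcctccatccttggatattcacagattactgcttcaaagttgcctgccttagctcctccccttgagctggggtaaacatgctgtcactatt
Abcb1b: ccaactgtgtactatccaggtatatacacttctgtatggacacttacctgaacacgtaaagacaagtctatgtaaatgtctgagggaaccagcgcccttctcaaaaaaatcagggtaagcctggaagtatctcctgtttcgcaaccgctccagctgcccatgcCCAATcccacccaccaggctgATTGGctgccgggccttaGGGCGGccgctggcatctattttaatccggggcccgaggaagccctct
Abcb4: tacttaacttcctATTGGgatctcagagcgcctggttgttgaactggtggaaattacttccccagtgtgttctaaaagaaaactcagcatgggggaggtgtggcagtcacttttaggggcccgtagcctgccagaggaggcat
CCAAT, the core of the CCAAT box, was found 2 times before Abcb1b, 1 time before Abcb4 and 0 times before Abcb1a. The GC box GGGCGG was found 1 time in the stretch shown for Abcb1b and 0 times in those shown for Abcb4 and Abcb1a. The stretch for Abcb4 ends where the gene table starts the gene, and 1 further GGGCGG lay beyond it, in the 250 bases that the promoter table gives for Abcb4. In the 250 bases before the start of all 32851 tabulated promoters, 33.8% held CCAAT and 32.7% held GGGCGG, counting both strands. GC content was 40.4% before Abcb1a, 52.8% before Abcb1b and 50.3% before Abcb4, against a median of 52.4% over all promoters. The TATA box TATAAA had 0 matches in the 250 bases of any of the 3 genes, against 12.4% of all promoters that hold it. The nuclear receptor motif AGGTCA (14.0% of all promoters) and the core of the antioxidant response element, TGANNNNGC (35.2%), had 0 matches either. The starts are those of the RefSeq table, and the arrays do not show which start was used. The stretch for Abcb1a lies within the annotated span of Rundc3b (chr5:8490336-8623084). Its motif counts and GC content may therefore not be those of the promoter used in liver.

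The authors deposited RMA values on the log2 scale, so a difference of 1 is a doubling. Array medians lay between 3.68 and 3.73. The targeted gene separated the labels, with Hsd17b4 (1417369_at) at 3.25 to 4.29 in knockout and 8.15 to 8.97 in wild type livers. Hepatocyte markers were high in all 8 livers, with list means of 12.03 to 12.36 in knockout and 11.93 to 12.11 in wild type livers. The Y-linked mean was low in knockout 1, knockout 2 and wild type 3 (1.98 to 2.13) and higher in the other 5 livers (3.12 to 3.77). The labels do not say that replicates came from separate litters, so the errors below measure the spread between these livers. In whole liver RNA, fewer cells of a type and less RNA per cell cannot be told apart.

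Abcb1a was higher in each knockout liver than in any wild type liver, by both of its probe sets. With 1419759_at it read 7.09, 6.99, 7.35 and 6.93 in knockout livers 1 to 4, against 4.52, 4.93, 4.01 and 4.88 in wild type livers 1 to 4. The knockout values lay close together, and the lowest of them stood 2.00 above the highest wild type value. The means were 7.09 ± 0.18 in knockout and 4.58 ± 0.43 in wild type livers (SD, n = 4 each). The difference was 2.51 ± 0.20 (SE of the limma fit), with a 95% interval from 2.07 to 2.94, which is 5.68-fold (4.19-fold to 7.69-fold).

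The second Abcb1a probe set, 1419758_at, gave the same picture at lower values. It read 6.62, 6.10, 6.96 and 6.32 in knockout livers 1 to 4, against 4.23, 3.58, 3.35 and 4.09 in wild type livers 1 to 4. Again the groups did not overlap, with a gap of 1.88. The difference was 2.69 ± 0.23 (SE), or 6.45-fold, with a 95% interval from 2.18 to 3.20. Wild type 2 and wild type 3 were below their array medians with this probe set. Dim values partly hold background, and the fold is then too small. The 2 probe sets were made from the same sequence record and are not independent measurements of the gene.

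**Figure D1:**
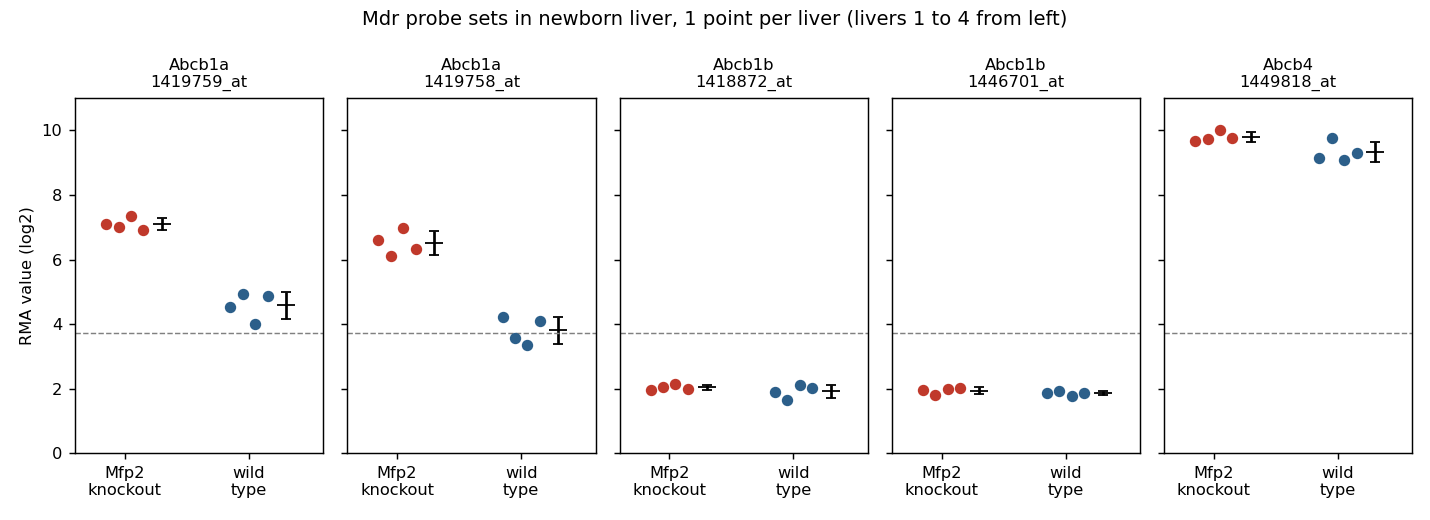
RMA values (log2) of the 5 Mdr probe sets, with 1 point per liver, knockout left and wild type right in each panel, and black marks for the mean ± SD of 4 livers. The dashed line is the highest array median (3.73). Both Abcb1a probe sets part the groups, both Abcb1b probe sets lie near 2 in all livers, and wild type 2 reaches the knockout values for Abcb4.

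Abcb1b, the second P-glycoprotein gene, had readings among the dimmest of each array in both groups. With 1418872_at it read 1.96, 2.06, 2.16 and 2.01 in knockout livers, against 1.89, 1.64, 2.11 and 2.03 in wild type livers. With 1446701_at, from another sequence record, it read 1.97, 1.80, 1.98 and 2.02 in knockout livers, against 1.86, 1.93, 1.78 and 1.87 in wild type livers. All 16 readings lay below the lower quartile of their array, and the groups overlapped with both probe sets. The differences were 0.13 ± 0.11 (SE; 95% interval -0.13 to 0.39) and 0.08 ± 0.09 (-0.12 to 0.28). At such values a change of the transcript below the detection of the array could not be seen, so these intervals do not bound it.

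Abcb4, the phosphatidylcholine pump, was bright in all livers and averaged 1.38-fold higher in the knockout, with groups that overlapped. It read 9.68, 9.72, 10.01 and 9.76 in knockout livers 1 to 4, against 9.16, 9.75, 9.08 and 9.30 in wild type livers 1 to 4. Wild type 2 lay above knockout 1 and knockout 2, so the groups overlapped, while the other 3 wild type livers lay below all knockout livers. The means were 9.79 ± 0.15 in knockout and 9.32 ± 0.30 in wild type livers (SD, n = 4 each). The difference was 0.47 ± 0.15 (SE), with a 95% interval from 0.13 to 0.80. That interval lies below those of both Abcb1a probe sets; the gap between the genes was not tested.

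Of the 5 probe sets, 2 had a limma adjusted p under 0.05 and were higher in the knockout, both of Abcb1a, and 0 were lower. Over all probe sets 0.198% were called higher and 0.564% lower. The same 2 had groups that did not overlap, as did 3.09% of all probe sets in the upward direction. Since Abcb1a was chosen for its rise, these counts are a description. A filter that kept probe sets with a mean over 8 livers at or above the median such mean retained 3 of the 5, and dropped those of Abcb1b.

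Pooled over both genotypes, the spread between livers was larger for Abcb1a than for most probe sets. The within-group SD of the fit was 0.33 for 1419759_at and 0.39 for 1419758_at. It was larger than that of 88.8% and 93.2% of all probe sets, dim ones included. With 1419759_at the spread lay mostly in the wild type livers (SD 0.43, against 0.18 in knockout livers). With 1419758_at it lay in both groups (0.41 and 0.37). For Abcb4 it was 0.24, larger than that of 73.0%. Knockout 3 was the highest knockout liver with both Abcb1a probe sets, with 1418872_at of Abcb1b and for Abcb4. Wild type 3 was the lowest wild type liver with both Abcb1a probe sets and for Abcb4. With 1419759_at and for Abcb4 the wild type livers had the same order, which from high to low was 2, 4, 1, 3. The second Abcb1a probe set had the order 1, 4, 2, 3. The 2 Abcb1a probe sets stood furthest apart in wild type 2, where 1419759_at read 1.35 above 1419758_at, against 0.29 to 0.89 in the other 7 livers.

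The Abcb1a difference stayed above 2 in each subset of livers used. Leaving out 1 liver at a time gave 2.31 to 2.62 with 1419759_at and 2.54 to 2.83 with 1419758_at. Livers numbered 1 and 2 alone gave 2.32 and 2.46, and livers numbered 3 and 4 alone gave 2.70 and 2.92. For Abcb4 the difference was 0.25 (95% interval -0.31 to 0.81) in livers 1 and 2 and 0.69 (0.32 to 1.05) in livers 3 and 4. Without wild type 2 it was 0.61 (0.35 to 0.87), and without wild type 3, the lowest value, 0.39.

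Erythroid markers, which stand for the blood-forming cells of newborn liver, had list means that did not overlap between the groups. All 5 measured members (Alas2, Slc4a1, Epor, Klf1 and Epb42) had lower means in the knockout, with list means of 8.14 to 8.86 in knockout and 9.21 to 9.38 in wild type livers. None of the 5 passed over all probe sets with the probe set used, at limma adjusted p of 0.0636 to 0.0903. All 5 had an unadjusted p under 0.05, against 14.6% of all genes. The list median was -0.91, against 0.01 over all genes. With the erythroid mean as a covariate, which nearly follows the genotype, the difference was 2.18 (95% interval 1.17 to 3.19) for 1419759_at of Abcb1a and 0.15 (-0.61 to 0.92) for Abcb4. With the hepatocyte mean as a covariate it was 2.41 (1.87 to 2.95) for 1419759_at and 0.31 (-0.05 to 0.68) for Abcb4. The erythroid mean parts the groups, so in this design blood-forming cells and genotype cannot be told apart for Abcb4. Their parts in the Abcb4 difference were not tested.

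P-glycoproteins are also known from capillary endothelium, gut, adrenal gland, blood stem cells and lymphocytes, so markers of these were read as well. Over all genes 1.15% passed in limma and 14.6% had an unadjusted p under 0.05. In lists this short, 0 calls therefore say little about the number of such cells. Of 8 endothelial markers 0 passed in limma, 0 of them at an unadjusted p under 0.05, and list means were 5.42 to 6.01 in knockout and 5.53 to 5.79 in wild type livers. Of 5 T and NK cell markers 0 passed and 4 lay below the array median in all livers, with list means of 3.11 to 3.34 in knockout and 2.99 to 3.30 in wild type livers. Of 5 blood stem and progenitor markers 0 passed, with 1 at an unadjusted p under 0.05 and list means of 4.33 to 4.55 in knockout and 4.24 to 4.46 in wild type livers. Adrenal markers had 0 of 5 past the threshold, 0 at an unadjusted p under 0.05 and list means of 3.26 to 3.55 in knockout and 3.19 to 3.36 in wild type livers. In limma 0 of 5 bile duct, 0 of 6 Kupffer cell, 0 of 5 stellate cell and 0 of 4 exocrine pancreas markers passed, and 0 in each list had an unadjusted p under 0.05. Among 5 intestinal markers, whose list means of 3.69 to 3.92 in knockout and 3.46 to 3.62 in wild type livers did not overlap, Vil1, Lct, Cdx1 and Cdx2 lay below the array median in all livers. The remaining one, Fabp2, a fatty acid binding protein, read 7.95 to 8.69 in knockout and 7.14 to 7.44 in wild type livers and rose by 1.14 ± 0.15 (limma adjusted p 0.0255). That call was kept without 5 of the 8 livers in turn and lost without knockout 4, wild type 3 or wild type 4. It was also lost with the replicate number as a block (adjusted p 0.0524), in livers 1 and 2 alone (0.303) and in livers 3 and 4 alone (0.136).

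Among the other Abcb genes, the bile salt export pump Abcb11 rose. Of 9 other Abcb transporters 7 were measured under their symbol, and 1 rose, 0 fell and 6 did not pass, where 0.308% of all genes were called higher and 0.841% lower. Abcb11, which sits beside Abcb4 in the canalicular membrane, read 9.999, 9.91, 9.65 and 9.85 in knockout livers, against 9.03, 9.27, 8.40 and 8.83 in wild type livers. It was higher in every knockout liver than in any wild type liver. The rise was 0.97 ± 0.17 (SE), or 1.96-fold, with a limma adjusted p of 0.0441. The call was lost without any 1 liver except wild type 2, with limma adjusted p of 0.0656 to 0.145. Without wild type 2 the adjusted p was 0.0354. The transporters of mitochondria, lysosomes and antigen presentation in this list (Abcb6, Abcb8, Abcb9, Abcb10, Tap1 and Tap2) ranged from -0.50 to 0.31. The list's median was 0.11.

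Among 14 Abcc and Abcg transporters, most of them export pumps, 0 passed in limma and 2 had an unadjusted p under 0.05, against 14.6% of all genes. Their median was 0.07 and their range -0.37 to 0.63. Abcg2, the breast cancer resistance protein, whose substrates overlap those of P-glycoprotein, had the lowest p. It read 8.54, 8.61, 8.28 and 8.25 in knockout livers, against 8.69, 8.96, 8.82 and 8.69 in wild type livers, so the groups did not overlap, as in 8.61% of all genes. The difference was -0.37 ± 0.11 (adjusted p 0.212), opposite in sign to that of Abcb1a. Abcc2, a canalicular pump of conjugated compounds picked after its values were seen, read 5.36, 5.48, 7.24 and 6.30 in knockout livers, against 4.76, 5.22, 5.86 and 5.996 in wild type livers. Its groups overlapped and its highest value was again in knockout 3.

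**Figure D2:**
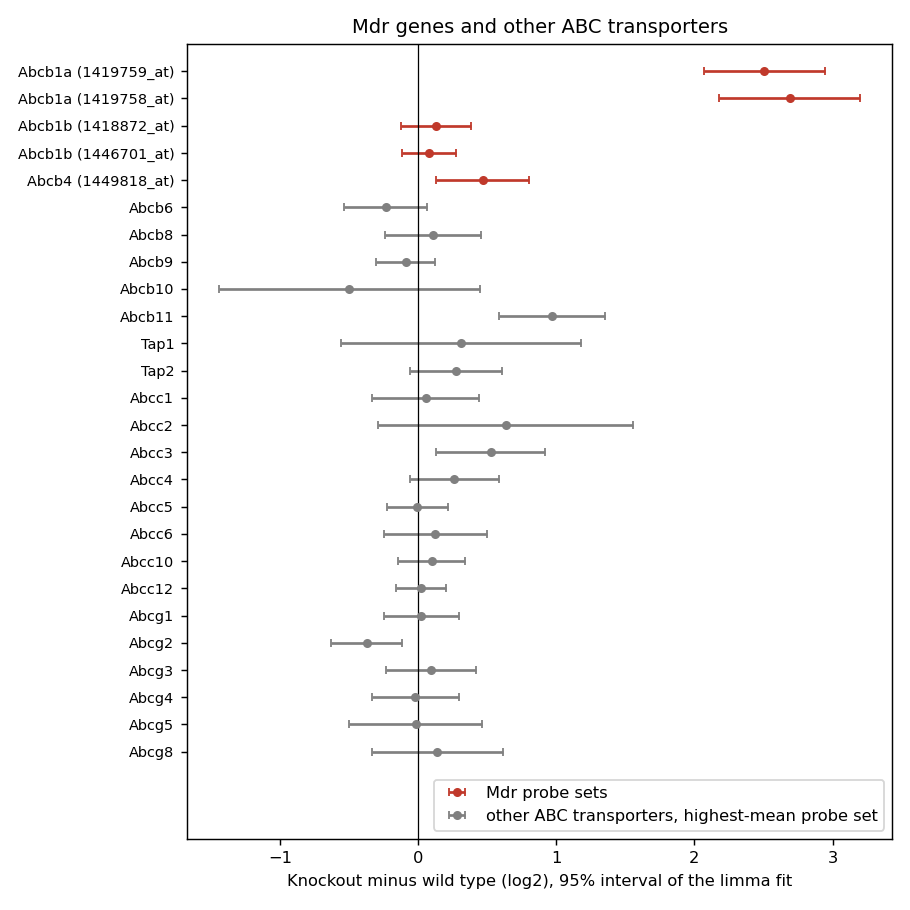
Difference of knockout minus wild type (log2) with the 95% interval of the limma fit, for the 5 Mdr probe sets (red) and the measured genes of the other Abcb and the Abcc and Abcg lists (grey). The intervals of both Abcb1a probe sets lie above 2.06, and Abcb11, at 0.97, has the next highest value.

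In the canalicular membrane list, which holds the pumps, flippases and traffic proteins around Abcb4, 1 of 17 genes rose and 0 fell. Of all genes 0.308% were called higher and 0.841% lower. The gene that rose was Abcb11, which the lists share. An unadjusted p under 0.05 was found for 3 of the 17, against 14.6% of all genes. The median was 0.05. Atp8b1 and Tmem30a, the flippase that works against Abcb4 in the same membrane and its partner subunit, were at -0.10 ± 0.16 and -0.12 ± 0.13 (limma adjusted p 0.875 and 0.821), both named after their values were seen.

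Genes that supply phosphatidylcholine, the cargo of Abcb4, gave 0 calls of 13 measured in limma, while 8 had an unadjusted p under 0.05, against 14.6% of all genes. The median was 0.26, with 10 means higher and 3 lower in the knockout. Chkb, a choline kinase, had the lowest p. It read 6.87, 6.93, 7.55 and 6.81 in knockout livers, against 6.17, 6.43, 6.02 and 6.12 in wild type livers. The groups did not overlap, and the difference of 0.86 ± 0.17 had an adjusted p of 0.0572. Lpcat1, which remodels phosphatidylcholine, was at -0.59 ± 0.12 (adjusted p 0.0651), and was picked after its values were seen.

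Bile acids and foreign compounds act on nuclear receptors that are known to control Mdr genes. In the list of bile acid response 2 of 12 genes rose and 0 fell, against 0.308% of all genes called higher, and 6 had an unadjusted p under 0.05, against 14.6% of all genes. The median was 0.16. Slc51b, part of the exporter that returns bile acids to blood, read 6.10, 5.92, 5.65 and 5.85 in knockout livers, against 4.72, 4.60, 4.53 and 4.60 in wild type livers. It rose by 1.27 ± 0.11 (limma adjusted p 0.00405), and the call was kept without each of the 8 livers in turn (adjusted p of 0.00670 to 0.0291). Its partner subunit Slc51a, named after its values were seen, lay below the array median in all livers. The second gene was Abcb11.

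Targets of the xenobiotic receptors CAR and PXR had a median of 0.82, with 11 of 13 means higher in the knockout, 1 gene past the threshold in limma (0.308% of all genes were called higher) and 10 with an unadjusted p under 0.05, against 14.6% of all genes. The gene past the threshold was Cyp2c55, a cytochrome P450. It read 4.40, 3.77, 3.75 and 3.76 in knockout livers, against 2.59, 2.80, 2.87 and 3.05 in wild type livers. Its rise was 1.09 ± 0.16 (limma adjusted p 0.0313), from wild type values below the array medians. The knockout values lay close to those medians, except in knockout 1. Cyp2c55 was dropped when dim probe sets were left out, and the 1 call of the list there was another gene. Cyp3a11, a classical PXR target, and Cyp2b10, a classical CAR target, were at 0.18 ± 0.16 and -0.02 ± 0.19 (limma adjusted p 0.753 and 0.985). Both were picked after their values were seen and do not stand for the list, whose differences ran from -1.38 to 1.27. Cyp2c55 passed without knockout 1, knockout 2 or wild type 2, and did not pass when any of the other 5 livers was left out.

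Known regulators of Mdr transcription were read as transcripts. Of 23 measured, 0 passed in limma and 4 had an unadjusted p under 0.05, with a median of 0.01. Over all genes 1.15% passed and 14.6% had an unadjusted p under 0.05. Foxo3, a forkhead factor, had the lowest p, at -0.44 ± 0.11 (adjusted p 0.127). The receptor genes Nr1i2 (PXR), Nr1i3 (CAR) and Nr1h4 (FXR), picked after their values were seen, were at 0.14 ± 0.20, 0.62 ± 0.36 and -0.16 ± 0.17, with adjusted p of 0.862, 0.581 and 0.791.

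**Figure D3:**
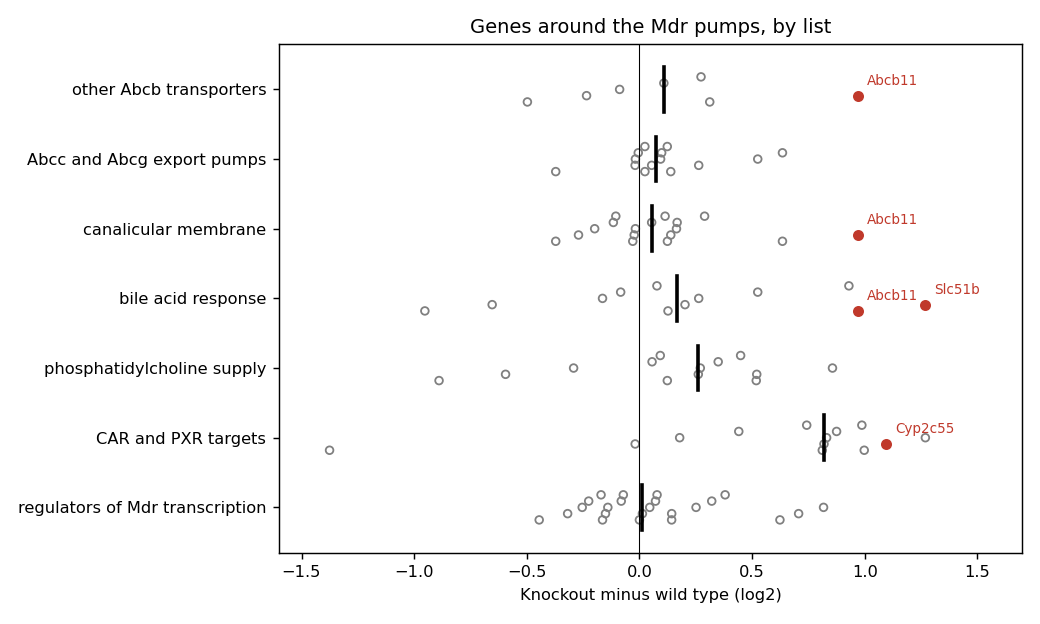
Difference of knockout minus wild type (log2) for each measured gene of the 7 lists, with black bars at the list medians. Filled red points passed the threshold in limma (Abcb11 in 3 lists, Slc51b and Cyp2c55). The median of the CAR and PXR targets (0.82) is the highest of the 7.

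The measured genes on either side of the Mdr block on chromosome 5 had differences of -0.63 to 0.28, against 2.51 for Abcb1a. Of these, 5 measured genes on each side, 0 of 10 passed in limma and 1 had an unadjusted p under 0.05. The shares over all genes were 1.15% and 14.6%. The median of the 10 was -0.05. The nearest on the Abcb4 side was Crot, a peroxisomal carnitine transferase, at 0.28 ± 0.20 (adjusted p 0.674). The nearest outside the block on the Abcb1a side was Slc25a40, a mitochondrial carrier, at -0.11 ± 0.12 (adjusted p 0.805). Dbf4, a subunit of a replication kinase, had the lowest p and lay the other way, at 6.81 to 7.06 in knockout and 7.25 to 7.83 in wild type livers, a difference of -0.63 ± 0.13 (adjusted p 0.0701). Rundc3b, whose annotated span overlaps that of Abcb1a in the gene table, was picked after its values were seen. It read 3.08, 3.29, 3.03 and 3.06 in knockout livers, against 2.84, 2.58, 2.60 and 2.76 in wild type livers. It was thus below the array median in all livers, at a difference of 0.42 ± 0.10 (adjusted p 0.108).

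**Figure D4:**
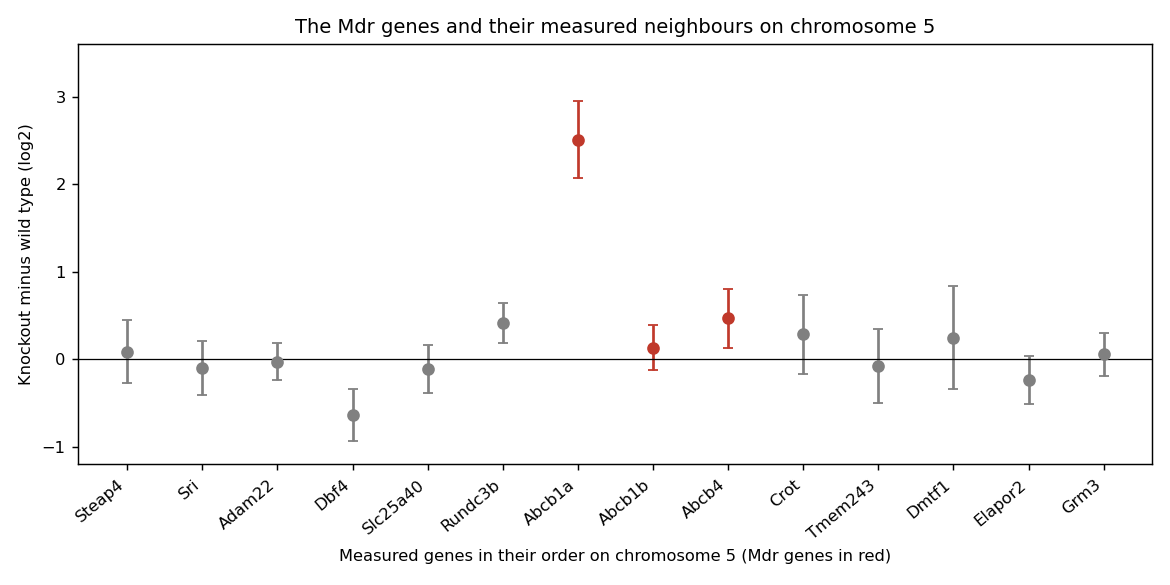
Difference of knockout minus wild type (log2) with the 95% interval of the limma fit for the Mdr genes (red, the brighter probe set of each) and the measured genes around them (grey), in their order on chromosome 5. Abcb1a, at 2.51, stands above all others, which range from -0.63 for Dbf4 to 0.47 for Abcb4.

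The 5 genes with the profile nearest to Abcb1a were Gsta4, Defb1, Acot1, Ehhadh and Slc4a9, among 18192 compared. Likeness was the root mean square difference over the 8 livers between values centred on their own mean, in log2 units. It was 0.43 for Gsta4, a glutathione transferase, 0.49 for Defb1, a beta-defensin, and 0.58 for Acot1, an acyl-CoA thioesterase. It was 0.60 both for Ehhadh, the other multifunctional enzyme of peroxisomal beta-oxidation, and for Slc4a9, an anion exchanger. For scale, the second Abcb1a probe set lay at 0.31 and the median gene at 1.29. These genes were chosen for likeness over these same 8 livers. Their differences, and any order of livers shared with Abcb1a, follow in part from that choice and are given with no test.

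Gsta4, the nearest, read 9.22, 9.003, 9.52 and 8.90 in knockout livers, against 7.70, 7.22, 7.01 and 7.32 in wild type livers. As for Abcb1a with 1419759_at, the probe set used for likeness, knockout 3 was the highest and knockout 4 the lowest knockout liver. Wild type 3 was the lowest wild type liver in both. With 1419758_at of Abcb1a the lowest knockout liver was knockout 2. Ehhadh read 10.41, 10.57, 11.51 and 10.36 in knockout livers, against 9.44, 9.69, 8.68 and 9.33 in wild type livers. Knockout 3 was the highest of the 4 knockout livers in all 5 genes, which the choice by likeness to Abcb1a favours. The differences were 1.85 for Gsta4, 1.88 for Defb1, 2.10 for Acot1, 1.43 for Ehhadh and 2.81 for Slc4a9.

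**Figure D5:**
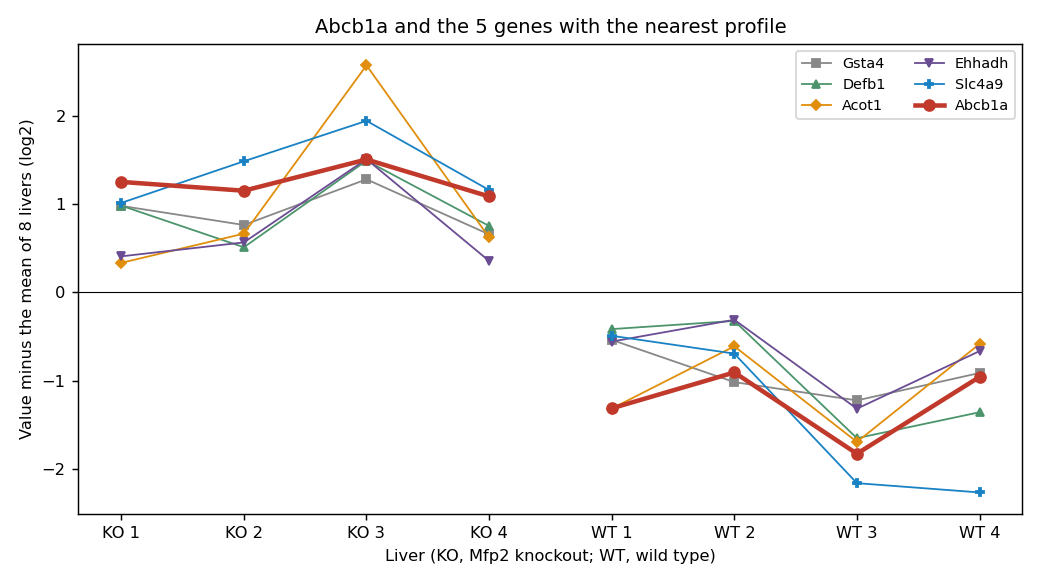
Values of Abcb1a (thick red line) and of the 5 genes nearest to it, each minus its own mean over the 8 livers (log2), with the livers along the axis. All 6 lie above 0 in the 4 knockout livers and below 0 in the 4 wild type livers, and Acot1 stands high in knockout 3. The choice of the 5 genes by likeness over these livers favours this pattern.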

How the data were processed

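Per the submitters' processing notes the authors ran RMA; which software was used is not stated there. That the deposited values are log2 follows from their range (1.11 to 13.7). RMA gives all arrays the same probe distribution, so a change in total RNA cannot be seen. Arrays have no read depth, and their number, 4 against 4, limits the precision. The 64 array controls were left out, which left 45037 probe sets, 34945 with 1 gene, 932 with several and 9160 unlisted. Symbols were updated through Entrez identifiers with the GRCm38.p6 gene table (34741 found). Its positions gave the order and overlap of genes and the ends of the base stretches shown.

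Knockout and wild type livers were set against each other in limma 3.58.1 (under R 4.3.3, two-sided moderated tests from eBayes on an lmFit without covariates), with Benjamini-Hochberg adjustment over 45037 probe sets and a threshold of 0.05. The fit was tested on simulated data. The probe set with the highest mean stood for a gene (18193 genes). Members and lists were chosen with earlier results of these data known, and the lists' members come from textbook knowledge. Named from each list were the genes past the threshold, or the one with the lowest p; others are said to be picked after their values were seen, including the erythroid and intestinal markers and Abcb6 to Tap2. Alternatives changed the filter, normalization, variance model, weights, block, covariates or livers used.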

Additional observations from a re-analysis of the deposited data

Results flagged for a closer look

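The 5 Mdr measurements and the genes named by rule, without the nearest neighbours Crot and Slc25a40, made 19 probe sets. Each was examined for a single liver that stands far from the other 3 of its group, by Dixon's criterion (38 groups in all). 3 were found, where chance gives about 5% of groups, and 0 of them were Mdr probe sets. Chkb read 7.55 in knockout 3, against 6.81 to 6.93 in the other knockout livers. Acot1 read 9.87 in knockout 3, against 7.63 to 7.96 in the others. Cyp2c55 read 4.40 in knockout 1, against 3.75 to 3.77 in the others. Knockout 3 was also the highest knockout liver for Abcb1a and Abcb4. The cause was not tested.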

How the results depend on the processing

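The differences of both Abcb1a probe sets and of Abcb4 kept their sign in all alternatives tried. Those of Abcb1a lay between 2.03 (1419758_at with the erythroid mean as a covariate) and 2.92, and Abcb4 reached its lowest value, 0.15, with the same covariate, which is nearly confounded with genotype. The dim 1446701_at of Abcb1b gave -0.17 there, -0.014 in livers 1 and 2 alone and 0.17 in livers 3 and 4 alone. Leaving out 1 liver gave 0.39 to 0.61 for Abcb4, 0.04 to 0.19 for 1418872_at and 0.05 to 0.13 for 1446701_at. Of 98 member values under alternatives, 93 moved by less than 1 within-group SD. Some of these could not move. The filter, the variance model and both blocks leave the difference itself unchanged in this balanced design.

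Counts of calls moved more. The 343 probe sets past the threshold became 914 with array weights, 552 with the Y-linked mean as a covariate (added after seeing the data, as were the marker covariates), 4 in livers 1 and 2 alone and 9 to 489 with 1 liver left out. With the replicate block 15 passed. No label ties the numbers to litters or batches, so they were not taken as pairs. Same-numbered livers deviated together with correlations of -0.0039, 0.07, 0.17 and 0.26, and 3 of 8 livers correlated best with their own number. Knockout 4 reached at most 0.02 with the other wild type livers, while knockouts 1, 2 and 3 reached up to 0.19, 0.22 and 0.18. These values do not decide whether the livers were paired. The replicate block took the calls to 0 for the other Abcb, canalicular and CAR and PXR lists and to 1 for bile acid response. Quantile normalization again gave 0, 0 and 1 call for other Abcb, canalicular and bile acid response genes. Livers 1 and 2 alone gave 0 calls in each of these 4 lists. Livers 3 and 4 alone gave 0 in the other Abcb and canalicular lists, 1 for phosphatidylcholine supply and 2 for CAR and PXR targets. Phosphatidylcholine supply had 1 call with dim probe sets left out or with trended and robust variance, and 2 with array weights. CAR and PXR targets had 2 with trended and robust variance, with the set of livers as a block or with any probe set counted, and 3 with array weights. Array weights gave 1 call each among regulators and chromosome neighbours. With 1 liver left out the ranges were 0 to 1 for the other Abcb, canalicular and neighbour lists, 1 to 3 for bile acid response, 0 to 2 for phosphatidylcholine supply and for CAR and PXR targets, and 0 for Abcc and Abcg genes and regulators. The called genes Abcb11, Slc51b, Cyp2c55 and Fabp2 kept differences of 0.99 to 1.49 under the erythroid covariate, with limma adjusted p of 0.770 to 0.887. The cause of these shifts was not tested.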
